A study of Mus musculus with 3 samples.

Results

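The levels of 10 heat shock genes were examined: the cytosolic and mitochondrial chaperones Hspa8, Hspa1a, Hspa1b, Hsp90aa1, Hsp90ab1, Hsph1, Dnajb1, Hspd1 and Hspe1, and the transcription factor Hsf1. They were picked out by gene symbol, with no threshold on a measured value, and make up 10 of the 55536 annotated genes in the tables. The measurements come from sequencing of total RNA, depleted of ribosomal RNA, from the cytosol of macrophages grown from the bone marrow of C57BL/6J mice, a common laboratory strain. All 3 libraries belong to 1 group, the time point of 0 minutes in a treatment with lipid A at 100 ng/ml, where lipid A is the membrane anchor of lipopolysaccharide and is sensed by TLR4. Each library was made from 1 µg of RNA and has its own biosample, but all carry the same donor label, and the labels give neither age nor sex. Nothing in the labels says whether the libraries came from separate animals or cultures, so an SD covers the spread among these samples alone and may be technical.

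Molecular chaperones hold unfolded proteins and help them reach their folded state. HSP70 proteins bind short unfolded stretches, with J-domain proteins delivering the client and nucleotide exchange factors releasing it. HSP90 acts later on clients such as kinases and steroid receptors, and the HSP60 and HSP10 chaperonin folds proteins inside mitochondria. HSF1 raises transcription of many of these genes when unfolded proteins accumulate, and some of them, such as Hspa8 and Hsp90ab1, are also made in unstressed cells. In macrophages, chaperones take part in antigen handling and in the folding of signalling kinases.

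Expected counts, the estimated reads per gene, summed over genes to 26318761, 41897257 and 56290298 in replicates 1, 2 and 3. All 8 macrophage markers examined had a TPM (a level scaled to transcript length and to the library total) of at least 1 in all 3 libraries. Markers of T cells, B cells, neutrophils, erythroid cells, fibroblasts and mast cells, 19 genes in all, were below 1 TPM in every library. Replicate 3 stood apart in nuclear RNA: the summed TPM of Malat1, Neat1, Kcnq1ot1 and Airn, RNAs that stay in the nucleus, was 243, 223 and 1101 in replicates 1, 2 and 3. The median spread between libraries is therefore also given without replicate 3. With 1 group there was no contrast to test, and the smallest p that an exact sign-flip test could reach with 3 libraries is 0.25, so every value below is a description.

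Of the 10 genes, 8 had a TPM of at least 1 in all 3 libraries. Over all genes this share was 17.0%, and over protein-coding genes 41.0%. In such bulk samples, fewer cells with an mRNA and less of it per cell cannot be told apart. The exceptions were Hspa1a and Hspa1b, which encode the stress-inducible HSP70 proteins. When TPM was rescaled to nuclear protein-coding genes only, all 10 genes reached 1, with Hspa1a at a mean of 3.52 and Hspa1b at 1.23. This rescaling raises the value of every such gene, and the share over all genes was not computed on it. The levels spanned a wide range, from Hspa8 at a mean of 373 TPM to Hspa1b at 0.28 TPM. The median of the 10 mean levels was 19.1 TPM, beside 7.19 TPM for the 9023 detected protein-coding genes and 0.14 TPM for all 22028 protein-coding genes.

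**Figure D1:**
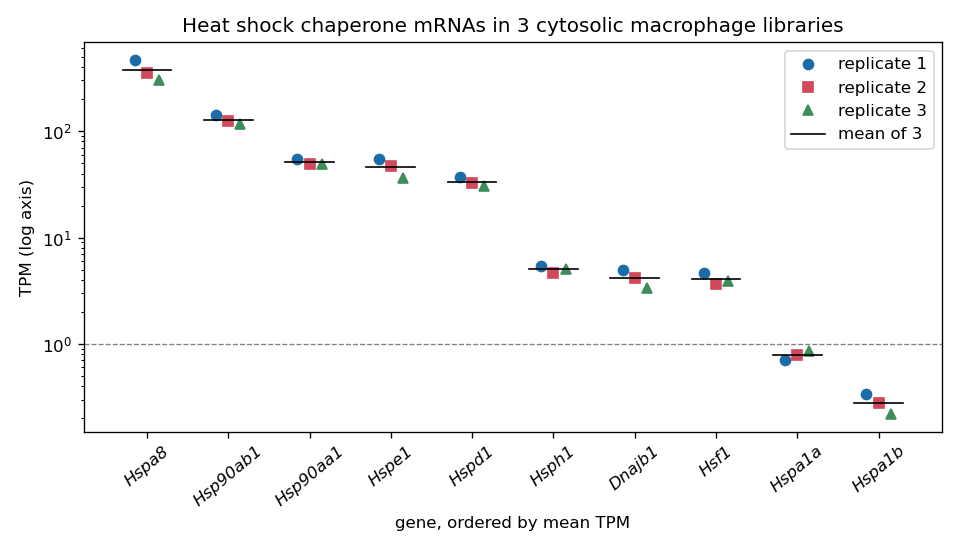
TPM of each gene in each library on a log axis, with genes ordered by mean TPM, 1 point per library and the mean of the 3 libraries as a bar; the dashed line marks a TPM of 1. Hspa8 lies above all other genes in every library, 5 genes lie at 30.2 TPM or above, 3 lie between 3.32 and 5.43, and only Hspa1a and Hspa1b lie below 1.

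Hspa8 encodes HSC70, the HSP70 protein present in unstressed cells, and lies on chromosome 9 at 40800984 to 40810087, plus strand (all gene coordinates are on mm10, from the GENCODE M21 annotation). Its TPM was 466, 351 and 302 in replicates 1, 2 and 3, or 373 ± 84.3 (SD, n = 3), which ranked 66 among protein-coding genes. Hspa8 alone took 0.181%, 0.164% and 0.145% of the TPM of nuclear protein-coding genes. Replicate 1 was high and replicate 3 low, and the deposited credibility intervals of the 3 libraries (444 to 469, 344 to 350 and 297 to 303 TPM) did not overlap. The differences between libraries were therefore larger than the quantification error within each of them.

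The inducible HSP70 genes stood at the other end of the range. Hspa1a (chromosome 17, 34969190 to 34972156, minus strand) had 0.71, 0.79 and 0.86 TPM in replicates 1, 2 and 3, from 92.0, 184 and 259 expected counts. Hspa1b (chromosome 17, 34956436 to 34959238, minus strand) had 0.34, 0.28 and 0.22 TPM from 41.0, 61.8 and 63.9 expected counts. Hspa1a was thus above Hspa1b in every library, and both stood far above 0 counts: the exact 95% Poisson interval for Hspa1b in replicate 1, which covers counting error only, was 29.4 to 55.6 counts. Hspa8 exceeded the sum of both by 444, 328 and 280-fold in the 3 libraries. Among the cytosolic HSP70 genes Hspa8, Hspa1a, Hspa1b, Hspa2 and Hspa1l, Hspa8 took 99.3% ± 0.152 (SD, n = 3) of the TPM.

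Hspa1a and Hspa1b are near-identical copies, each with a single exon, so the reads that a table assigns to one or the other are partly uncertain. Their coding sequences, 1923 and 1926 bases long, differed at 8 aligned positions and had 3 gap positions, and 99.4% of aligned columns were identical. Of all 50-base windows of the Hspa1a transcript, 58.8% also occurred in the Hspa1b transcript, and none occurred in the main Hspa8 transcript. The following 50-base stretch, coding bases 1367 to 1416 of each gene from the GENCODE M21 transcripts, is shown because it was the gap-free stretch of that length with the most differences. Capitals mark the 2 bases that differ, which are what a read from this stretch offers for telling the copies apart; the stretches lie at chr17:34970510-34970559 and chr17:34957592-34957641 on mm10, minus strand.
Hspa1a coding: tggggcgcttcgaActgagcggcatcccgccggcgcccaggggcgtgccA
Hspa1b coding: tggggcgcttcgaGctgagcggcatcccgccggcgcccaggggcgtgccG
On the TPM scale the sum of both copies was nearly level between libraries, at 1.05, 1.07 and 1.08 TPM. As a share of nuclear protein-coding TPM, Hspa1a stood at 2.75e-04%, 3.69e-04% and 4.13e-04% in replicates 1, 2 and 3. Hspa1b stood at 1.32e-04%, 1.31e-04% and 1.06e-04%, so on that scale the sum was lowest in replicate 1 and highest in replicate 3. The share given to Hspa1a was 67.6%, 73.8% and 79.6% in replicates 1, 2 and 3 by the RSEM-format tables and 68.0%, 73.1% and 77.5% by the kallisto-format tables. Both quantifications gave Hspa1a the larger share in each library. The deposited TPM intervals of each gene overlapped for all 3 pairs of libraries, so they do not separate the libraries for either copy. Overlap does not show that the libraries were equal. By counts scaled to library size (log2 CPM, below), Hspa1a varied most of the 10 genes, with an SD of 0.257.

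**Figure D2:**
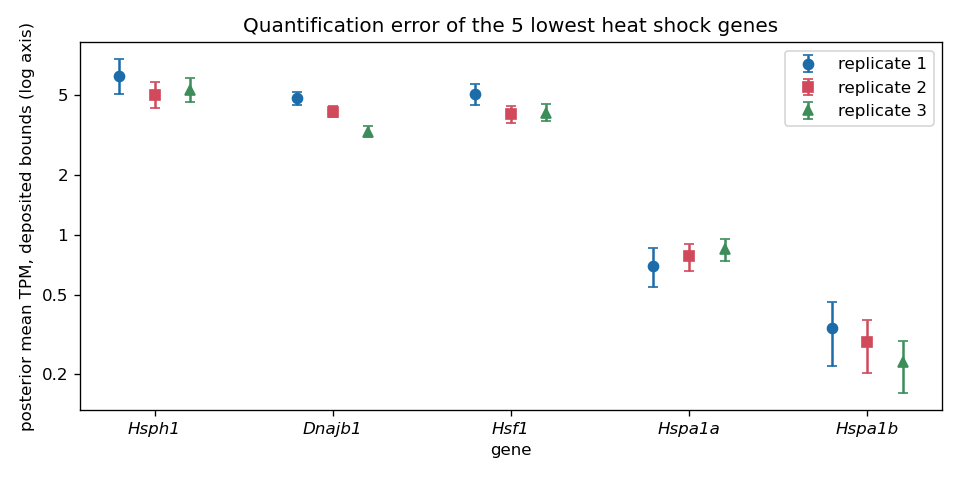
Posterior mean TPM of the 5 genes with the lowest levels on a log axis, 1 point per library, with bars for the deposited credibility bounds. The Hspa1a and Hspa1b bars of the 3 libraries overlap within each gene, while those of Dnajb1 do not.

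Dnajb1 (chromosome 8, 83608193 to 83612653, plus strand) encodes HSP40, a J-domain protein that stimulates HSP70. It had 4.95, 4.20 and 3.32 TPM in replicates 1, 2 and 3, and on the TPM scale the credibility intervals of the libraries did not overlap. By counts scaled to library size (log2 CPM, below), Dnajb1 stood at 4.57, 4.57 and 4.22, so replicates 1 and 2 were level on that scale. Hsph1 (chromosome 5, 149614287 to 149636376, minus strand) encodes HSP105, an HSP70 relative that exchanges its nucleotide, and had 5.43, 4.63 and 5.03 TPM, with overlapping intervals for every pair of libraries. Hspa8 exceeded Dnajb1 by 94.2, 83.5 and 90.9-fold and Hsph1 by 85.9, 75.8 and 60.0-fold in replicates 1, 2 and 3. The ratio to Dnajb1 was 89.6 ± 5.46 (SD, n = 3), and by TPM both genes were highest in replicate 1 and lowest in replicate 3. As a share of nuclear protein-coding TPM, Dnajb1 was instead highest in replicate 2, at 1.96e-03%, beside 1.92e-03% in replicate 1 and 1.59e-03% in replicate 3. Hsph1 was above Dnajb1 in all 3 libraries, although their ranges overlapped. Over protein-coding transcripts only, Hsph1 was below Dnajb1 in replicates 1 and 2, at ratios of 0.855 and 0.816, and at a ratio of 1.01 in replicate 3.

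Both cytosolic HSP90 genes were abundant. Hsp90ab1 (chromosome 17, 45567775 to 45573271, minus strand), which encodes the constitutive HSP90 beta, had 142, 125 and 118 TPM in replicates 1, 2 and 3. Hsp90aa1 (chromosome 12, 110690605 to 110702728, minus strand), which encodes the more inducible HSP90 alpha, had 54.5, 49.4 and 49.3 TPM. Their ranges were far apart: Hsp90ab1 exceeded Hsp90aa1 by 2.61, 2.54 and 2.39-fold and made up 71.5% ± 0.920 (SD, n = 3) of the TPM of the pair. Over protein-coding transcripts alone, the ratio was 3.50, 3.44 and 2.96, since part of the Hsp90aa1 level came from a short retained-intron transcript described below.

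Hspd1 and Hspe1 encode HSP60 and its lid HSP10, the chaperonin of the mitochondrial matrix, and lie head to head on chromosome 1. Hspd1 (55077835 to 55088243, minus strand) had 36.8, 32.5 and 30.2 TPM in replicates 1, 2 and 3. Hspe1 (55088132 to 55091307, plus strand) had 55.3, 47.1 and 36.7 TPM. By TPM both were highest in replicate 1 and lowest in replicate 3. Hspe1 was above Hspd1 in every library, by 1.50, 1.45 and 1.21-fold. By counts scaled to library size (log2 CPM, below), both were highest in replicate 2 and lowest in replicate 3. Hspd1 stood at 7.01, 7.06 and 6.94 and Hspe1 at 5.70, 5.74 and 5.37 in replicates 1, 2 and 3. By kallisto-format TPM both were also highest in replicate 2. As a share of nuclear protein-coding TPM, Hspd1 was lowest in replicate 1. The 2 annotated genes overlap by 112 bases on opposite strands, and whether the authors' counting used strand is not given in the sources used here, so reads from the overlap may be shared.

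Processed pseudogenes named after these chaperonin genes took few reads. They were picked out as symbols that start with the gene's symbol followed by -ps or -rs, so copies under other names were not searched. Of 5 Hspd1 pseudogenes found this way, only Hspd1-ps3 (chromosome 11) had expected counts, with 21.6, 57.1 and 105 in replicates 1, 2 and 3. These made up 1.06% ± 0.464 (SD, n = 3) of the counts of Hspd1 and its copies, beside 0.0607% by the kallisto-format tables. Of the 50-base windows of Hspd1-ps3, 60.7% also occurred in the main Hspd1 transcript, so the division of reads between them is uncertain. Of 6 Hspe1 pseudogenes, only Hspe1-ps5 had expected counts, 0, 3 and 6.

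Hsf1 (chromosome 15, 76477422 to 76501913, plus strand), the transcription factor that drives the heat shock response, had 4.67, 3.69 and 3.92 TPM in replicates 1, 2 and 3. It lay within the range of Dnajb1 and below Hsph1 in every library. In order of mean TPM, the ranges of Hsp90aa1 and Hspe1, Hspe1 and Hspd1, Hsph1 and Dnajb1, and Dnajb1 and Hsf1 overlapped between libraries. Hspe1 nevertheless exceeded Hspd1 in all 3 libraries. Hsph1 exceeded Dnajb1 in all 3 by gene TPM and in 1 of 3 over protein-coding transcripts only, and the other 2 pairs kept their order in 2 of 3. The remaining neighbours in the order, such as Hspa8 and Hsp90ab1 or Hsf1 and Hspa1a, did not overlap.

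Deviations between libraries were compared on log2 CPM (counts scaled to library size with TMM factors), for which 12413 genes, all 10 among them, passed the filter on low counts. Replicate 3 had the lowest value for 8 of the 10 genes, beside 35.5% of all genes past the filter. The exceptions were Hsp90aa1, at 7.69, 7.75 and 7.84 in replicates 1, 2 and 3, and Hspa1a, at 1.77, 2.16 and 2.26, which were both lowest in replicate 1. By TPM the count of genes lowest in replicate 3 was 7, and by kallisto-format TPM it was 9. The share over all genes was not computed on either TPM scale, so these counts stand without a comparison. The nuclear RNA sum was highest in that library, and its part in these values was not tested.

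The 4 genes furthest below in replicate 3 came from different parts of the network. The log2 difference of replicate 3 from the mean of the other 2 libraries was -0.35 for the J-domain gene Dnajb1, -0.35 for the HSP10 gene Hspe1, -0.34 for Hspa1b and -0.28 for Hspa8. Hsp90ab1, Hspd1, Hsph1 and Hsf1 differed by -0.08 to -0.09, Hsp90aa1 by 0.12 and Hspa1a by 0.29. The median over the 10 genes was -0.09, beside 0.00 over all genes past the filter.

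The size of the spread was near that of other genes. The median SD of log2 CPM was 0.121 over the 10 genes and 0.119 over all genes past the filter, and 5 of the 10 genes lay above the median gene and 5 below. Hsph1 and Hsp90ab1 varied least, with SDs of 0.0531 and 0.0537, at the 16.4 and 16.6 percentiles of all genes. Hspa1a varied most, with an SD of 0.257 at the 80.3 percentile. Without replicate 3, the median SD was 0.0376 over the 10 genes and 0.0853 over all genes. The median spread of these genes thus rested largely on that library. Hspa1a and Hsf1 instead lay furthest from the mean of the other libraries in replicate 1, at log2 differences of -0.44 and 0.10.

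**Figure D3:**
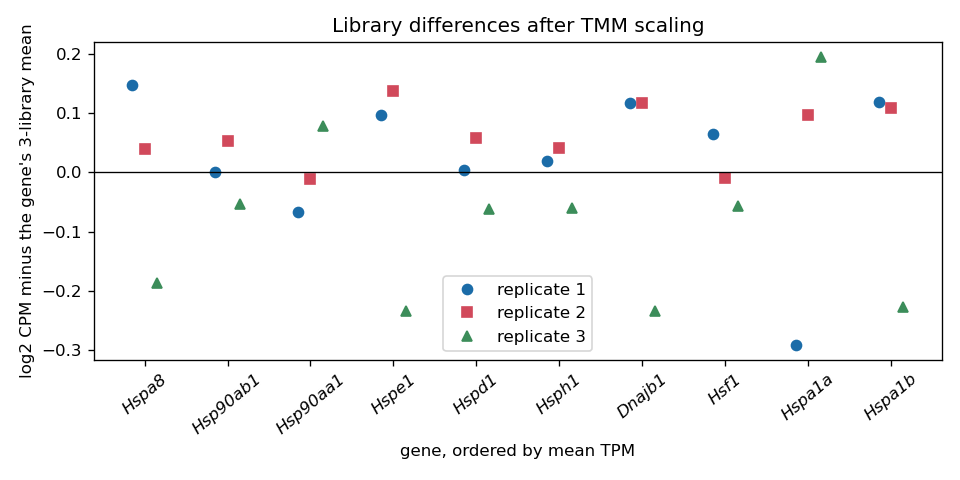
TMM-scaled log2 CPM of each gene in each library minus the gene's mean over the 3 libraries, with genes ordered by mean TPM and 1 point per library. Replicate 3 is the lowest point for 8 of 10 genes, and Hsp90aa1 and Hspa1a are the exceptions.

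The transcripts behind each gene were read from the deposited isoform percentages, the share of a gene's TPM given to each annotated transcript. For Hspe1, Dnajb1 and Hsp90ab1, 1 transcript held nearly all of the level, at 99.6% ± 0.494, 99.7% ± 0.497 and 98.6% ± 0.406 (SD, n = 3). Hspd1-201 held 89.1%, 88.4% and 88.6% of Hspd1 in replicates 1, 2 and 3, and Hspd1-202, a coding transcript of 863 bases, held 10.5%, 11.0% and 9.49%. Hspa1a and Hspa1b have 1 annotated transcript each. The other 4 genes were divided among several transcripts.

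Hspa8 was divided mainly between 2 coding transcripts by the RSEM-format tables. Hspa8-201 held 58.6%, 60.4% and 62.6% in replicates 1, 2 and 3, and Hspa8-202 held 35.5%, 39.4% and 36.7%. All 2019 bases of Hspa8-202 lie within Hspa8-201, which has 318 more bases at the 5′ end and 57 more inside. The division therefore rests on the reads in those bases, and the kallisto-format tables gave Hspa8-202 only 18.3%, 15.4% and 10.1%. The 598-base processed transcript Hspa8-203, a class with no annotated coding frame, stood at 5.67% in replicate 1, 0% in replicate 2 and 0.29% in replicate 3 by the RSEM-format tables. The kallisto-format tables gave it 19.5%, 9.07% and 3.64%, which in replicate 1 was above Hspa8-202.

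The leading Hsp90aa1 transcript depended on the quantification. By the RSEM-format tables Hsp90aa1-202 led with 52.3%, 44.6% and 41.5% in replicates 1, 2 and 3, above Hsp90aa1-201 with 21.5%, 28.1% and 38.0%. By the kallisto-format tables Hsp90aa1-201 led with 50.6%, 61.1% and 74.1%, and Hsp90aa1-202 held 16.7%, 14.7% and 18.2%. The 2 transcripts share 2752 bases, and Hsp90aa1-202 runs 423 bases further at its 3′ end. Which of them was more abundant is therefore not settled by these tables.

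Retained-intron transcripts, which keep an unspliced intron, made up a sizeable share of 2 genes. Retained-intron and processed transcripts together held 26.2%, 27.2% and 20.5% of Hsp90aa1 and 21.9%, 26.0% and 33.1% of Hsph1 in replicates 1, 2 and 3. Of the 8 heat shock genes with more than 1 transcript, these 2 reached 10% in all 3 libraries, beside 16.4% of 8373 detected protein-coding genes with more than 1 transcript, where the median share was 2.13%. The 10% threshold was chosen after these values were seen. By the kallisto-format tables neither gene reached it in all 3 libraries: the shares were 32.7%, 24.1% and 7.66% for Hsp90aa1 and 8.87%, 11.6% and 19.9% for Hsph1.

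These shares came from few reads. Hsp90aa1-204, a retained-intron transcript of 325 bases, held 26.1%, 27.0% and 20.1% of the gene's TPM from 69.1, 131 and 126 expected counts, or 1.22%, 1.47% and 1.01% of the gene's counts. Of its bases, 312 also lie in the exons of Hsp90aa1-202. Hsph1-208, of 751 bases, held 21.7%, 25.4% and 28.0% from 28.9, 53.4 and 83.0 counts. A short annotated transcript turns few counts into a large TPM, so a gene's TPM summed over transcripts can exceed the level of its full-length mRNA. Over protein-coding transcripts alone, Hspa8 exceeded Hsph1 by 104, 102 and 89.0-fold, in place of the 85.9, 75.8 and 60.0-fold given above.

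Hsf1 had the most annotated transcripts of the 10 genes, 16. Its main coding transcript Hsf1-205 held 71.5%, 79.1% and 52.4% in replicates 1, 2 and 3, and the kallisto-format tables gave 72.2%, 77.4% and 52.0%. Retained-intron and processed transcripts held 5.66%, 0.97% and 10.9% of Hsf1. This share came from few reads: 3.06%, 0.991% and 6.62% of the gene's 403, 583 and 741 expected counts. Replicate 3 was thus low in the main transcript and high in these classes, and it is also the library with the most nuclear RNA, whose part in this was not tested.

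**Figure D4:**
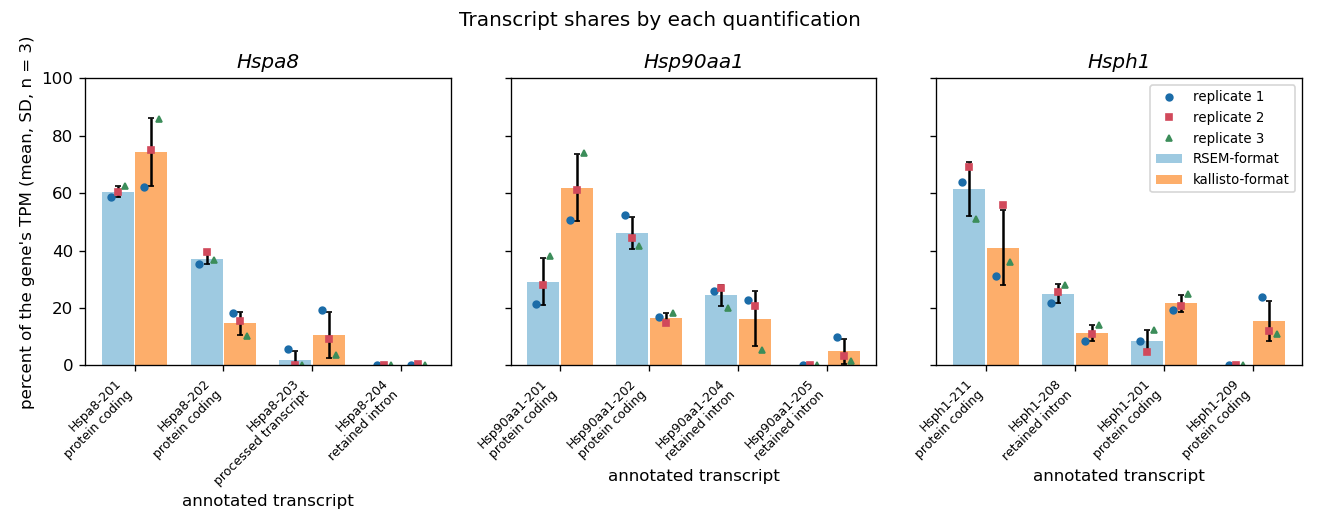
Percent of each gene's TPM held by its 4 leading annotated transcripts for Hspa8, Hsp90aa1 and Hsph1; bars are means with SD (n = 3), points are libraries, and colours separate the RSEM-format from the kallisto-format tables. The 2 tables rank Hsp90aa1-201 and Hsp90aa1-202 in opposite order, and both put Hspa8-201 and Hsph1-211 first.

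Promoter sequences were examined because these genes share a regulator: HSF1 binds arrays of the unit nGAAn in alternating orientation, called heat shock elements. RefSeq promoters of build GRCm38.p6, 250 bases before to 50 bases after a gene's start, were found for 6 of the 10 genes, namely Hspa1a, Hspa1b, Hspd1, Hspe1, Hsph1 and Dnajb1, in 9 entries. Hspa8, Hsp90aa1, Hsp90ab1 and Hsf1 had none. Each promoter was searched on both strands for GAANNTTC and TTCNNGAA, the 2 ways a pair of units can meet, for CCAAT, and for TATAAA. The 2 pairs overlap by 3 bases where units follow each other. Either pair occurred in 6 of the 9 entries and in 15.1% of all 32851 mouse promoters of the same length. Overlapping pairs, a run of at least 3 units, occurred in 0.603% of all promoters. The 6 entries are not independent: the Hsph1 windows overlap, Hspd1 and Hspe1 share the same run, and Hspa1a and Hspa1b are near-identical. Their count is therefore no measure of enrichment over all promoters. The windows below hold the upstream pairs of 4 genes. Capitals mark the heat shock pairs and, for Hspa1a and Hspa1b, also the CCAAT box, which reads ATTGG on the gene's strand.
Hspa1a promoter: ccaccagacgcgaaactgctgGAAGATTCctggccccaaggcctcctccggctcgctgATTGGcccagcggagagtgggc
Hspa1b promoter: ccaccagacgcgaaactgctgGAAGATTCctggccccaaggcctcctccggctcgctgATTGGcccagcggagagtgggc
Hspe1 promoter: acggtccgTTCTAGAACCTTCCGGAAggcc
Hsph1 promoter: gtagaatctTTCTCGAAggctcgagaagaa
The printed windows lie at chr17:34972202-34972281 (Hspa1a, minus strand), chr17:34959284-34959363 (Hspa1b, minus strand), chr1:55088051-55088080 (Hspe1, plus strand) and chr5:149636349-149636378 (Hsph1, minus strand).

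The 2 inducible HSP70 genes, which had the lowest levels, carried the same upstream window: GAANNTTC 104 bases and CCAAT 67 bases before the start in both, and their whole promoters differed at 4 of 300 positions. CCAAT occurred in 37.4% of all promoters. Hspe1, at 46.4 TPM, had 3 overlapping pairs between 89 and 79 bases before its start, and the same run lay 144 to 134 bases before the inner annotated start of Hspd1, since the 2 genes face away from each other. Hsph1 had a single pair 33 bases before its start and an overlapping run 36 to 41 bases after it. The Dnajb1 windows held neither pair, and none of the 9 entries held TATAAA, which occurred in 13.6% of all promoters. A match describes letters only, and no match says only that these letters are not in this window. Levels thus ranged from 0.28 to 46.4 TPM among genes with a heat shock pair in the window.

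The rest of the chaperone network was read from 8 lists with 92 genes. Of these, 73 had a TPM of at least 1 in all 3 libraries, a share to set beside 41.0% of all protein-coding genes. The median of the mean levels over all 92 genes, detected or not, was 7.68 TPM. Among other HSP70 family genes, 8 of 11 were detected, with a median of 4.94 TPM. The highest were Hspa5, the HSP70 of the endoplasmic reticulum, at 169 ± 32.1, Hspa4 at 32.8 ± 2.70 and Hspa9, the mitochondrial HSP70, at 30.7 ± 1.65 TPM (SD, n = 3). Hspa5 was thus 2nd to Hspa8 in the family. Hspa12a and Hspa12b were at 0.03 and 0.05 TPM.

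Among HSP90 family genes and co-chaperones, 14 of 15 were detected, with a median of 11.4 TPM. Hsp90b1, the HSP90 of the endoplasmic reticulum, stood at 126 ± 17.3 TPM, overlapping the range of Hsp90ab1. Ahsa1, which stimulates the HSP90 ATPase, stood at 64.0 ± 6.64 TPM, and Cdc37, which brings kinases to HSP90, at 29.8 ± 3.80 TPM. Fkbp5, a co-chaperone of steroid receptor complexes, was at 0.823 TPM.

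The partners of HSP70 were detected in nearly all cases. Of 22 other J-domain genes, 21 were detected, with a median of 10.8 TPM, led by Dnajb6 at 41.7 ± 5.79, Dnajb11 at 28.9 ± 3.90 and Dnaja1 at 25.9 ± 3.59 TPM. Dnaja4 was at 0.0467 TPM. Of 9 nucleotide exchange factors and HSP70 regulators, 8 were detected, with a median of 7.99 TPM, led by Bag1 at 37.7 ± 6.73, Bag6 at 35.4 ± 3.71 and St13 at 34.2 ± 5.71 TPM. Bag2 was at 0.353 TPM.

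The chaperonins and the mitochondrial machinery were detected almost throughout. Of 9 genes for the cytosolic chaperonin TRiC, 8 were detected, all but Cct6b at 0.0467 TPM, with a list median of 26.7 TPM, and the 8 lay within a 1.62-fold range, from 19.7 TPM for Cct7 to 32.0 TPM for Cct2. The 3 highest were Cct2, Cct5 at 28.8 ± 5.15 and Cct6a at 27.9 ± 2.33 TPM. All 11 genes of mitochondrial protein folding and import were detected, with a median of 5.96 TPM, below Hspd1 and Hspe1. Dnajc19, a J-domain protein of the import motor, stood highest at 16.7 ± 3.16 TPM, followed by the protease Htra2 at 11.5 ± 1.97 and Hscb, which acts in iron-sulfur cluster assembly, at 11.4 ± 2.62 TPM.

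None of 9 small heat shock protein genes reached 1 TPM in any library, and 3 of them had 0 counts in all 3, which allows up to 3 counts per library. The highest were Hspb6 at 0.797, Hspb9 at 0.357 and Cryab at 0.107 TPM. Hspb1, which encodes the stress-inducible HSP27, was at 0.03, 0 and 0.12 TPM in replicates 1, 2 and 3. The list median was 0.00667 TPM. Of 6 HSF family genes and regulators, with a median of 0.83 TPM, 3 were detected, a share near the 41.0% of all protein-coding genes. The 3 were Hsbp1, which encodes a protein that binds HSF1, at 50.3 ± 6.69, Hsf2 at 2.47 ± 0.246 and Hsf4 at 1.64 ± 0.305 TPM. Hsf1 was thus the highest of the HSF genes in every library, and Hsf3 and Hsf5 were at 0.0167 and 0.00333 TPM.

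**Figure D5:**
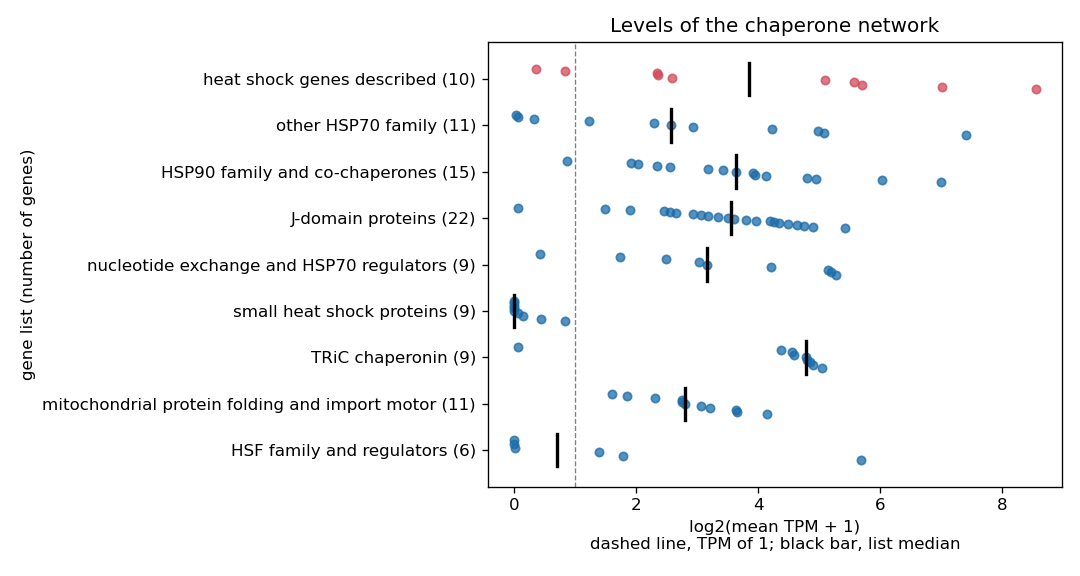
Mean level of each gene over 3 libraries as log2(TPM + 1), 1 row per list with the 10 heat shock genes in red and black bars for list medians; the dashed line marks a TPM of 1. All 9 small heat shock protein genes lie left of the line and all 11 mitochondrial folding genes lie right of it.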

How the data were processed

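Each of 3 libraries had 3 tables on mm10 and the GENCODE M21 annotation, per the labels and the deposited notes. Columns are those of RSEM in the gene table and 1 transcript table and those of kallisto in the other, per the file headers; tool versions are not given in the sources used here. The authors deposited expected counts (estimated reads, not whole) and TPM as maximum likelihood and posterior mean estimates. FPKM was deposited beside them and not used. The share of each isoform was deposited as a percent. Credibility bounds of TPM were deposited as a signal on the TPM scale.

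Symbols came from the transcript identifiers, and 10 of 10 matched. Means and SDs are over 3 libraries. For the spread, expected counts were rounded, filtered with filterByExpr and TMM-scaled in edgeR 4.0.16 (R 4.3.3), and log2 CPM was computed with a prior count of 2; the script was tested on simulated data. Alternatives included DESeq2 1.42.0 size factors, kallisto-format tables, other thresholds and leaving out each library. Library totals were 26318761 to 56290298 counts. Coding sequences were aligned globally, and promoters came from RefSeq. Each list's 3 highest genes, and up to 2 below a TPM of 1, were named by rule; other list genes and transcripts were chosen after their values were seen. The members and lists were chosen with earlier results of these data known. No test was run, since there is 1 group.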

Additional observations from a re-analysis of the deposited data

How the results depend on the processing

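The absolute scale depended on the quantification and on the denominator. The summed TPM of the 10 genes was 646 ± 113, but 279 by the kallisto-format tables and 2838 when TPM was rescaled to nuclear protein-coding genes; leaving out each library gave 584 to 695. The order of the 10 genes was the same by the kallisto-format and posterior mean values except that Hsf1 passed Dnajb1. The count of genes detected was 8, beside 10 on the nuclear protein-coding scale, 5 at a TPM threshold of 5 and 9 at a threshold of 0.5. The shares over all genes were not computed for these alternatives. Over protein-coding transcripts only, the log2 ratio of Hsp90ab1 to Hsp90aa1 was 1.72 in place of 1.33, and that of Hspa8 to Hsph1 was 6.62 in place of 6.19. The median SD of log2 CPM ranged from 0.0376 to 0.169 when each library was left out, lowest without replicate 3, and was 0.121 with DESeq2 size factors. By kallisto-format counts, pseudogene shares were 0.0607% for Hspd1 and 0.301% for Hspe1, in place of 1.06% and 0.133%. Of the values for single genes and transcripts, 27 moved by more than the spread between libraries and 41 did not. Most of the 27 were levels of the 10 genes on the kallisto-format scale, where all were lower, or the nuclear protein-coding scale, where all were higher. The leading Hsp90aa1 transcript changed: Hsp90aa1-202 held 46.1% by the RSEM-format and 16.5% by the kallisto-format tables. The log2 ratio of Hsph1 to Dnajb1 was 0.29 and reversed to -0.17 over protein-coding transcripts only, and the count of genes with at least 10% of retained-intron and processed transcripts was 2 and became 0 by kallisto-format shares. The alternatives for this ratio and this count, and the count of genes lowest in replicate 3 by TPM, were chosen after seeing the data. The cause of these shifts was not tested.

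No paired analysis was possible because there is 1 group. Depth limits Hspa1a and Hspa1b most, which rest on 41.0 to 259 expected counts. The libraries describe only the cytosolic fraction at 0 minutes. Protein levels were not measured.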
